A study of Homo sapiens and Mus musculus with 213 samples.

Results

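The 10 genes described here encode proteins that bind G-rich promoter DNA that can fold into a G-quadruplex (G4), a four-stranded structure of stacked guanine tetrads. They are SP1, SP2, SP3, SP4, MAZ, CNBP, NME2, VEZF1, PATZ1 and YY1. They were chosen by gene symbol and matched through the Ensembl identifier to GENCODE, and all 10 were among the 58336 genes listed and the 20884 genes tested. Their mRNA was measured by poly(A) RNA-seq in HEK293T, an immortalized human embryonic kidney line, with 3 libraries for each of 3 cell lines. MYC WT cells carry the unedited G4 motif upstream of MYC. In MYC MUT cells, point mutations in its G-runs prevent folding. In SWP cells the MYC G4 was replaced with a different G4-forming sequence. The edited lines are CRISPR clones, and which clone was sequenced is not given in the sources used here, so a difference between lines and a difference between clones cannot be told apart. Library names of MYC WT carry an SLX label that those of MYC MUT and SWP do not. What this label stands for is not given, and a batch that goes with it could not be told apart from the line. Whether the 3 libraries of a line came from separate cultures is not stated beyond their label as biological samples, and p-values measure the spread between them.

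Promoters rich in guanine are bound by several zinc finger families. SP1 to SP4 recognize GC boxes through 3 C-terminal zinc fingers, and they share this domain with the Krüppel-like factors. SP1 is a broadly expressed activator, SP3 competes for the same boxes as activator or repressor, SP4 is best known in neurons, and SP2 has a more divergent DNA preference. MAZ, VEZF1 and PATZ1 are zinc finger proteins that bind runs of guanine, and MAZ was first described at the MYC promoter. YY1 is a zinc finger factor that activates or represses and takes part in promoter looping. CNBP, a small protein of CCHC zinc knuckles, and NME2, a nucleoside diphosphate kinase, have been described at the G-rich element upstream of MYC. RNA levels say nothing of the binding of these proteins, and the binding assays of the study were not analysed here.

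On hg38, GENCODE places the SP genes on 4 chromosomes, with SP1 (ENSG00000185591) at chr12:53380176-53416446, SP2 (ENSG00000167182) at chr17:47896150-47928957, SP3 (ENSG00000172845) at chr2:173880850-173965373 and SP4 (ENSG00000105866) at chr7:21428043-21514822. The guanine run binders are MAZ (ENSG00000103495) at chr16:29806106-29811164, VEZF1 (ENSG00000136451) at chr17:57971547-57988259 and PATZ1 (ENSG00000100105) at chr22:31325804-31346346. The remaining genes are YY1 (ENSG00000100811) at chr14:100238298-100282788, CNBP (ENSG00000169714) at chr3:129167827-129183922 and NME2 (ENSG00000243678) at chr17:51165435-51171744.

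The promoters of the factor genes themselves were searched for G4 motifs, because the factors bind such sequences. A G4 motif was taken as 4 runs of at least 3 G with loops of 1 to 7 bases, spelled GGGNGGGNGGGNGGG at its shortest, on either strand. RefSeq promoter windows (GRCh38.p14, 250 bases before to 50 after a start site) were given for 9 of the 10 genes, 14 windows in all, and PATZ1 had none. At least 1 window held the motif in 7 of the 9 genes, SP1, SP3, SP4, MAZ, NME2, VEZF1 and YY1, and in 8 of the 14 windows. It was in 25.0% of all 35116 promoter windows, and 41.6% of the 12244 tested genes with an entry had it in at least 1 window. SP2 and CNBP had no match in their windows. The GC box core GGGCGG, which can overlap a G4 motif, was in all 14 windows, which belong to 9 genes, and in 45.0% of all windows, while 76.3% of the tested genes with an entry had it in at least 1 window. One match per gene is shown, read 5′ to 3′ on the strand that carries the guanines, with the G-runs in capitals and the loops in lower case.
SP1: GGGGcggaGGGaaGGGaGGG
SP3: GGGGcGGGagttccGGGcGGG
SP4: GGGtcGGGGGcGGGGccaGGG
MAZ: GGGGccGGGGccGGGGGcGGGGG
NME2: GGGccGGGcGGGtGGGG
VEZF1: GGGGcccGGGGcGGGGatGGGG
YY1: GGGcGGGGGGagaGGGGGcGGG

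The SP1 motif lies at chr12:53380432-53380451, -212 to -193 bases from the start site of its second RefSeq window. The first SP1 window had no motif. The SP3 motif lies at chr2:173965376-173965396, -23 to -3 bases from the start site. The SP1 and SP3 motifs are on the strand of the gene, as is the NME2 motif at chr17:51166326-51166342. By the GENCODE coordinates, the motifs of SP1, NME2, MAZ and YY1 lie within the gene, downstream of its outermost start. The motifs of SP4 (chr7:21427979-21427999), MAZ (chr16:29806432-29806454), VEZF1 (chr17:57988441-57988462) and YY1 (chr14:100239109-100239130) are on the opposite strand. The single MAZ window held 3 separate motifs at a GC content of 88.0%, the highest among the 14 windows, and the SP2 window, without a motif, had 58.0%. The letters are a description of the promoters, and whether these motifs fold in the cells was not analysed here.

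Reads counted on genes ranged from 65024354 to 98497026 per library, and values are read counts divided by a size factor per library (normalized counts). Fold changes were fitted with limma on log2(normalized count + 1) and are on that scale, and a gene was called at a Benjamini-Hochberg adjusted p under 0.05 with a log2 fold change beyond 0.5. MYC, the edited locus, had 20020, 28396 and 21580 normalized counts in MYC WT, 10693, 11176 and 12400 in MYC MUT, and 14480, 24743 and 25245 in SWP. It was lower in MYC MUT than in MYC WT (log2 fold change -1.02 ± 0.19 SE, limma adjusted p = 0.00182) and stood at -0.15 ± 0.19 on the same scale in SWP against MYC WT (adjusted p = 0.712). The 6 markers of HEK293T cells were detected in every library, with a sum of 64342 to 81828 normalized counts. This sum was mostly VIM, with a mean of 58968.5 beside 75807.1 for the sum in MYC WT. Single markers differed between lines (KRT8 had means of 462, 782 and 190 in MYC WT, MYC MUT and SWP). In MYC MUT against MYC WT 3 of the 6 were called (2 higher, 1 lower), beside 21.4% of all tested genes. It was 2 in SWP against MYC WT (1 higher, 1 lower), beside 5.13%, and 4 in MYC MUT against SWP (3 higher, 1 lower), beside 20.6%. Of 6 markers of other cell types, INS was at 0, PTPRC, CD3E and PECAM1 were below 2 and ALB below 6 in every library, and MYOD1 had 20.3 to 70.6, with sums of 31.8 to 49.4 in MYC WT, 24.0 to 48.6 in MYC MUT and 30.9 to 76.5 in SWP. The first MYC WT and the first SWP library lay apart from the others of their lines on the third principal component, which held 10.6% of the variance.

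All 10 factor genes were well expressed in HEK293T cells, at levels that spanned a wide range. Mean normalized counts over the 9 libraries ran from 1593 for SP4 to 63419 for MAZ, so that 58.3% of the tested genes had a lower mean than SP4 and 99.7% a lower mean than MAZ. Levels were set side by side as normalized counts per kb of the canonical transcript. In MYC WT, MAZ stood highest with 23370 ± 724 normalized counts per kb (SD, n = 3), followed by NME2 (14162 ± 645) and CNBP (11084 ± 494). YY1 followed with 2574 ± 176 normalized counts per kb, then SP1 (1637 ± 191), PATZ1 (1617 ± 336), VEZF1 (739 ± 7.45), SP2 (645 ± 38.5), SP3 (544 ± 3.58) and SP4 (249 ± 25.7). Only SP1 and PATZ1, neighbours in this order in MYC WT, had overlapping libraries there. NME2 and CNBP overlapped in MYC MUT, where NME2 had 10989 ± 880 and CNBP 10907 ± 95.4 normalized counts per kb. Over the merged exons of all transcripts in place of the canonical one, NME2 ranked below CNBP in every line.

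None of the 10 genes was called in any of the 3 comparisons. In MYC MUT against MYC WT, where 21.4% of all tested genes and 13.0% of the 8635 genes with a mean in the range of the factors were called, SP1 fell to 79.5% and NME2 to 77.5% of the MYC WT level. Both passed the adjusted p, and neither reached the fold threshold. The other 8 genes did not pass the adjusted p, which 38.4% of all tested genes did. Intervals for 7 of the 10 genes lay within a log2 fold change of 0.5 in either direction, and those of SP1, NME2 and PATZ1 reached beyond it. The median size of the log2 fold change was 0.092 over the 10 genes, beside 0.27 over all tested genes and 0.20 over the genes in their range of levels. Edited and unedited libraries did not overlap for 4 of the 10 genes, and for 52.3% of all tested genes.

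SP1 had 11680, 14261 and 11768 normalized counts in MYC WT, 9726, 9605 and 10546 in MYC MUT, and 10355, 11315 and 11569 in SWP. The 3 MYC MUT libraries lay below the 3 MYC WT libraries, and the second MYC WT library stood above all others. The log2 fold change in MYC MUT against MYC WT was -0.33 ± 0.09 (SE), with a 95% interval from -0.52 to -0.14 (limma adjusted p = 0.0108; exact two-sided permutation p = 0.1, the smallest that 3 against 3 libraries allow). Without the second MYC WT library it was -0.24 (limma adjusted p = 0.0313). SP1 in SWP was at 88.4% of MYC WT, with an interval from 77.6% to 101% and an adjusted p of 0.242 in limma. The 3 SWP libraries also lay below the 3 MYC WT libraries. Between MYC MUT and SWP the SP1 difference was -0.15 ± 0.09 with overlapping libraries (limma adjusted p = 0.184), so that the fall in MYC MUT was not shown to differ from the value in SWP.

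The other 3 SP genes did not follow SP1 past the test. SP3 was the steadiest gene in MYC WT, with 6327, 6379 and 6409 normalized counts (coefficient of variation 0.657%), 6471, 6130 and 6291 in MYC MUT and 6341, 6064 and 5821 in SWP. In MYC MUT it stood at 98.8% of MYC WT, with an interval from 90.3% to 108% (limma adjusted p = 0.841), and in SWP at 95.3% with an interval from 87.1% to 104%. SP2 had 1817, 2016 and 2023 normalized counts in MYC WT, 1828, 1785 and 2052 in MYC MUT and 1786, 1653 and 1914 in SWP, and its libraries overlapped in every comparison. Its MYC MUT level was 96.7% of MYC WT, with an interval from 84.8% to 110% (limma adjusted p = 0.684), and its SWP level was 91.4%, with an interval from 80.2% to 104%. SP4, the lowest of the 4, had 1688, 1461 and 1388 normalized counts in MYC WT, 1630, 1419 and 1487 in MYC MUT and 1975, 1654 and 1636 in SWP. The library numbered 1 was the highest of its line in each of the 3 lines, and the MYC MUT interval of SP4 ran from 85.7% to 117% of MYC WT.

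In SWP, SP4 stood at 116% of MYC WT with an interval from 99.2% to 136% (log2 fold change 0.21 ± 0.10, limma adjusted p = 0.235). Across genes, deviations from the line mean in same-numbered SWP and MYC WT libraries had r of 0.555, 0.403 and 0.102. Unlike numbers reached 0.263, so whether the libraries were paired is not settled. With the replicate number as a block SP4 passed the limma adjusted p in SWP against MYC WT (adjusted p = 0.0337). It also did so in MYC MUT against SWP, at a log2 fold change of -0.21, with an adjusted p of 0.0155 with the block and 0.126 without. The SP4 libraries of MYC MUT all lay below those of SWP. Within a library, SP1 made up 53.1 ± 2.61% (SD, n = 3) of the summed level per kb of SP1 to SP4 in MYC WT, 47.9 ± 0.739% in MYC MUT and 50.8 ± 2.37% in SWP. SP4 made up 8.13 ± 1.16%, 9.20 ± 0.689% and 10.2 ± 1.24% in the same order. These shares were not tested, and they move with the SP1 level that the comparisons above describe.

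MAZ, VEZF1 and PATZ1, the zinc finger proteins that bind guanine runs, had point values above MYC WT in MYC MUT. None of the 3 passed the adjusted p in limma fitted to the deposited values of all 9 libraries without a replicate block. MAZ had 61005, 57376 and 59703 normalized counts in MYC WT, 66922, 64246 and 71061 in MYC MUT, and 64210, 59679 and 66573 in SWP. All MYC MUT libraries were above all MYC WT libraries, while SWP libraries overlapped with both. The MAZ log2 fold change in MYC MUT against MYC WT was 0.18 ± 0.07, an increase to 113% with an interval from 102% to 126% (limma adjusted p = 0.0539; exact two-sided permutation p = 0.1). The call at the adjusted p alone depended on the settings, since MAZ passed with edgeR (adjusted p = 0.0364), with DESeq2 (adjusted p = 0.0173) and with values scaled to equal totals (log2 fold change 0.26, limma adjusted p = 0.00568). It also passed with the replicate block (limma adjusted p = 0.00743) and without the first MYC WT and SWP libraries (log2 fold change 0.20, limma adjusted p = 0.0344). In SWP, MAZ stood at 107% of MYC WT with an interval from 96.3% to 119%.

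VEZF1 was lower in level, with 3462, 3394 and 3415 normalized counts in MYC WT, 3801, 3639 and 3743 in MYC MUT, and 3698, 3397 and 3471 in SWP. The MYC MUT libraries lay above those of MYC WT, and the SWP libraries overlapped with both lines. The VEZF1 log2 fold change in MYC MUT was 0.12 ± 0.06 (limma adjusted p = 0.137), an interval of 99.2% to 120% of MYC WT. It passed the adjusted p under both other scalings, at 0.20 with equal totals (limma adjusted p = 0.0184) and 0.16 with equal upper quartiles (limma adjusted p = 0.0464). PATZ1, by contrast, had the widest spread of the 10 genes, with 7717, 5135 and 6047 normalized counts in MYC WT, 7050, 6671 and 7557 in MYC MUT, and 8409, 5946 and 6818 in SWP. The library numbered 1 was the highest and the one numbered 2 the lowest in both MYC WT and SWP, where the coefficients of variation were 20.8% and 17.7%, against 6.27% in MYC MUT. The interval of PATZ1 in MYC MUT ran from 91.0% to 143% of MYC WT (limma adjusted p = 0.338), so a change of the size of the fold threshold would lie within it. The first MYC WT and SWP libraries are those that stood apart across all genes. Without both, a setting chosen after seeing the data, PATZ1 in MYC MUT against MYC WT was at 0.35 ± 0.09 on the log2 scale and passed the adjusted p (limma adjusted p = 0.00429), still below the fold threshold. Without the first MYC WT library alone the adjusted p was 0.0548. In SWP, the VEZF1 interval ran from 93.7% to 113% and the PATZ1 interval from 89.8% to 141% of MYC WT.

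YY1 had 18042, 16654 and 15764 normalized counts in MYC WT, 16095, 15403 and 16784 in MYC MUT, and 17851, 16791 and 18486 in SWP. Its log2 fold change was -0.062 ± 0.070 in MYC MUT and 0.075 ± 0.070 in SWP against MYC WT (limma adjusted p = 0.515 and 0.578), with overlapping libraries in both. All MYC MUT libraries were below all SWP libraries, at 90.9% with an interval from 81.7% to 101% (limma adjusted p = 0.145). CNBP, the nucleic acid chaperone, had 37665, 34659 and 37240 normalized counts in MYC WT, 35735, 36299 and 35777 in MYC MUT, and 38856, 38915 and 37234 in SWP. Its MYC MUT level was 98.5% of MYC WT with an interval from 90.0% to 108% (limma adjusted p = 0.794) and its SWP interval ran from 96.0% to 115% (limma adjusted p = 0.530). Its libraries overlapped between MYC WT and either edited line, and all MYC MUT libraries lay below all SWP libraries (log2 fold change -0.093 ± 0.059, limma adjusted p = 0.240).

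NME2 showed the lowest MYC MUT level of the 10 genes relative to MYC WT. It had 9282, 9883 and 10151 normalized counts in MYC WT, 7073, 7418 and 8255 in MYC MUT, and 8220, 8581 and 9129 in SWP. Libraries of either edited line lay below those of MYC WT. In MYC MUT the log2 fold change was -0.37 ± 0.07, with an interval from -0.53 to -0.20 (limma adjusted p = 0.00262; exact two-sided permutation p = 0.1), and 61.6% of the tested genes had a smaller change in either direction. In SWP it was -0.18 ± 0.07 (limma adjusted p = 0.173, and adjusted p = 0.0262 with the replicate block). Between MYC MUT and SWP it was -0.19 ± 0.07 (limma adjusted p = 0.0642, and adjusted p = 0.00741 with the block).

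The NME2 value may depend on how reads were divided with a near-identical copy. This is the processed pseudogene NME2P1 (ENSG00000123009, chr12:120282303-120282716), an intronless copy of the NME2 mRNA. Its 414 bases matched an NME2 transcript at 402 positions (97.1%), and no stretch without a mismatch was longer than 72 bases. Sequencing used a 75-cycle kit, and 0% of the 75-base windows of the copy were found unchanged in NME2. The first 60 bases of the copy are shown with the NME2 transcript at the same place, with the 4 bases that differ in capitals.
NME2: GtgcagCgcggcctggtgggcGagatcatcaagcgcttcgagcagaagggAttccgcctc
NME2P1: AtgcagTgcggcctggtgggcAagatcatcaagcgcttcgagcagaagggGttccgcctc

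NME2P1 had 10784, 10968 and 11524 normalized counts in MYC WT, 10603, 10701 and 11358 in MYC MUT, and 9295, 9509 and 10821 in SWP. These counts are 114% of those of NME2 in MYC WT and 144% in MYC MUT. Its libraries overlapped between MYC MUT and MYC WT, and the value was -0.027 ± 0.071 on the log2 scale (limma adjusted p = 0.793). With the counts of NME2 and NME2P1 summed, a setting chosen after seeing the counts of the pseudogene, the value in MYC MUT against MYC WT was -0.18 ± 0.07 (limma adjusted p = 0.0686), no longer past the adjusted p, and in MYC MUT against SWP it was -0.0030 ± 0.070 (limma adjusted p = 0.979). The summed counts were 20864 ± 805 in MYC WT, 18470 ± 1015 in MYC MUT and 18518 ± 1273 in SWP (SD, n = 3). Which of the 2 genes the reads came from was not tested.

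Pseudogenes of the other members took fewer reads. VEZF1P1 held 9.56% and SP3P 4.16% of the count of its parent gene in MYC WT, and YY1P1 and YY1P2 each under 1%. NME1, the neighbouring and closely related kinase gene, had a mean of 16432 normalized counts in MYC WT and a log2 fold change of -0.18 ± 0.10 in MYC MUT (limma adjusted p = 0.167), and the readthrough gene NME1-NME2, which shares 603 exon bases with NME2, had means of 80.1, 110 and 83.4 in MYC WT, MYC MUT and SWP. Of the MAZ exon bases, 43.7% are shared with MVP-DT, an antisense noncoding gene with means of 295, 368 and 387 in the same order, and 14.6% with the antisense gene ENSG00000259952, with 61.6, 69.7 and 59.9. Without knowledge of strand in the counting, reads of MAZ and these genes cannot be told apart. SP2-AS1 shares no exon bases with SP2, and the remaining overlapping genes had means below 60 normalized counts in every line.

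**Figure D1:**
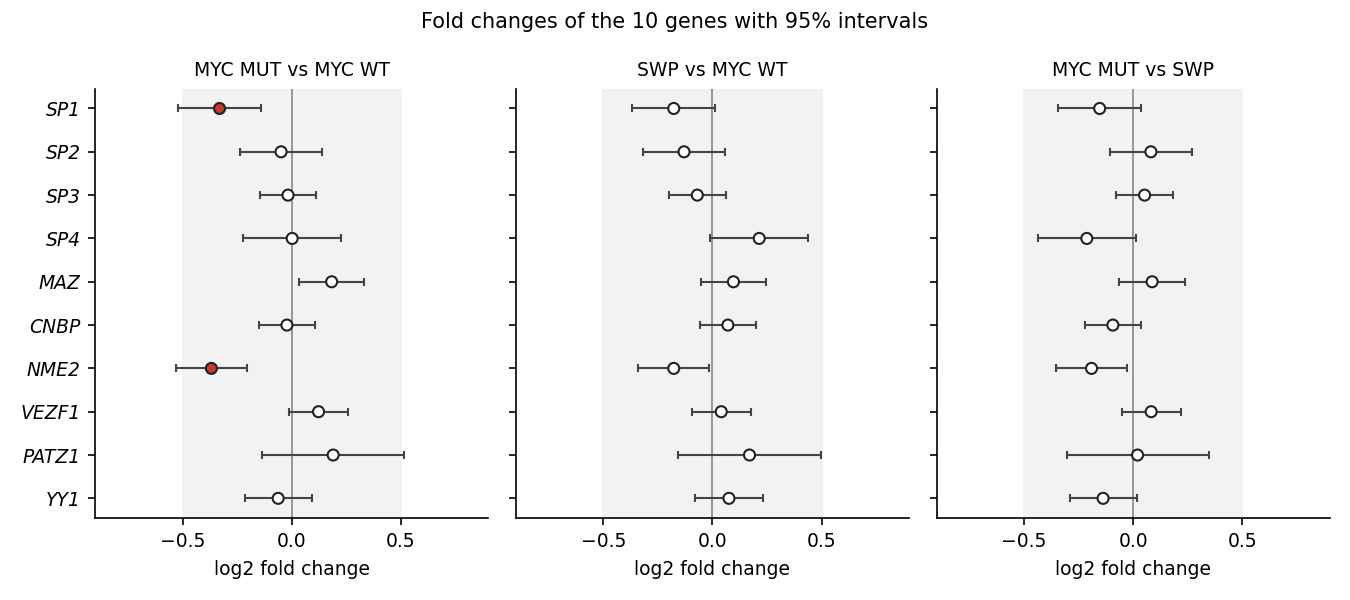
Log2 fold changes of the 10 genes (points) with 95% intervals (bars) in MYC MUT against MYC WT, SWP against MYC WT and MYC MUT against SWP. Filled points passed an adjusted p of 0.05 in limma, which only SP1 and NME2 did, in the comparison of MYC MUT with MYC WT. The shaded band marks log2 fold changes within 0.5, and no point lies outside it.

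In SWP against MYC WT, 0 of the 10 genes were called, beside 5.13% of all tested genes and 1.93% of those in the same range of levels, and 0 passed the adjusted p alone, which 9.97% of all tested genes did. With limma, 1 of the 10, NME2, had an unadjusted p under 0.05 (0.0359), and edgeR and DESeq2 also called none. With the replicate number as a block, 2 passed the adjusted p, SP4 and NME2, both below the fold threshold. All 10 intervals lay within a log2 fold change of 0.5. Libraries did not overlap for 2 genes, SP1 and NME2, both lower in SWP, beside 24.6% of all tested genes. The median log2 fold change of the 10 was 0.055, beside -0.055 over all tested genes.

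Between MYC MUT and SWP, 0 of the 10 genes were called in a comparison that called 20.6% of all tested genes and 11.6% of those in the same range of levels. NME2 alone had an unadjusted p under 0.05 in limma (0.0262), none of the 10 passed the adjusted p, which 38.0% of all tested genes did, and with the replicate block SP4 and NME2 passed it. The 10 intervals lay within a log2 fold change of 0.5, from -0.44 for SP4 to 0.35 for PATZ1 at their ends. SP4, CNBP and YY1 were lower in every MYC MUT than in every SWP library, while 52.3% of all tested genes did not overlap in either direction. The comparisons with MYC WT share its libraries, as the other pairs share theirs, and are not independent of each other.

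Among the 61 to 241 other tested genes within 5 Mb on either side of a factor, the median log2 fold change in MYC MUT against MYC WT ran from -0.18 around SP4 to 0.17 around MAZ. It was 0.072 around SP1, whose own value was -0.33, and -0.055 around NME2. Signed medians let rises and falls cancel, and the share of these neighbours that was called ran from 12.0% around VEZF1 to 22.0% around SP1, beside 21.4% of all tested genes. In SWP against MYC WT the medians ran from -0.18 around SP2 to -0.020 around YY1.

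Relatives of the factors were looked at as lists, since they share DNA binding domains. Of 23 further SP and Krüppel-like genes, 17 were tested, and in MYC MUT against MYC WT 3 rose, 1 fell and 13 were not called, a share to be read beside the 21.4% over all genes. KLF14 (log2 fold change 0.85 ± 0.22), SP6 (0.73 ± 0.25) and KLF2 (0.73 ± 0.15) rose, from means of at most 112 normalized counts in MYC WT, with adjusted p of 0.0121, 0.0382 and 0.00288 in limma. KLF15, which is linked to metabolic gene control, fell from a mean of 1696 to 964 normalized counts (-0.81 ± 0.13, adjusted p = 0.000699). In SWP against MYC WT none of the 17 was called by limma, beside 5.13% of all tested genes, and none passed the adjusted p, beside 9.97%. The median log2 fold change of the 17 in MYC MUT was -0.027, beside -0.0034 over all tested genes. Each of the 4 called genes was also called between MYC MUT and SWP.

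Of 15 relatives of the other factors, 12 were tested, and 2 were called in MYC MUT against MYC WT, beside 21.4% of all tested genes. NME5, a member of the NME family found in cilia, fell from a mean of 94.0 to 3.87 normalized counts (-4.55 ± 0.43, limma adjusted p = 1.74e-05), and NME6 rose (0.51 ± 0.08, adjusted p = 0.000736). ZBTB7B was called between MYC MUT and SWP (-0.71 ± 0.08, limma adjusted p = 6.13e-05), and in SWP against MYC WT it passed the adjusted p below the fold threshold (0.37 ± 0.08, adjusted p = 0.0156), which it lost under 3 of 22 alternatives, among them leaving out the third MYC WT or the third SWP library. In SWP against MYC WT none of the 12 was called, beside 5.13% of all tested genes.

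Among 15 other proteins described to bind G4s or the MYC promoter, 2 were called lower in MYC MUT against MYC WT and none higher. In either direction, 21.4% of all tested genes and 13.0% of those in the level range of the factors were called. NONO, an RNA and DNA binding protein of paraspeckles, fell by 0.65 on the log2 scale (± 0.06, limma adjusted p = 2.63e-05), and HMGB1, a chromatin protein, fell by 0.52 (± 0.08, adjusted p = 0.000635). A further 5, HNRNPA1, HNRNPA2B1, PARP1, TAF15 and EWSR1, passed the adjusted p with falls below the fold threshold, so that 7 of 15 passed it downward, beside 19.8% of all tested genes and 26.3% of those in the level range of the factors. Some of the 15 lie above that range, HNRNPA2B1 and PARP1 among them, and TAF15 lost the adjusted p under 8 of 22 alternatives. The median of the 15 was -0.25, beside -0.034 over the genes in the level range of the factors. These backgrounds are not matched in level to the 15. Even SUB1, the lowest of them, had a mean above that of 93.2% of tested genes. HMGB1 was also called between MYC MUT and SWP. In SWP against MYC WT none was called, beside 5.13% of all tested genes and 1.93% of those in the level range of the factors. In that comparison 3, NONO, HNRNPA1 and TAF15, passed the adjusted p downward, beside 5.48% of all tested genes and 5.55% of those in the level range of the factors. NONO and HNRNPA1 each lost it under 13 of 22 alternatives, equal totals and edgeR among them.

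Of 14 cofactors of the SP and YY1 proteins, 1 was called in MYC MUT against MYC WT, beside 21.4% of all tested genes. The adjusted p was passed by 7, 3 higher and 4 lower, beside 38.4% of all tested genes and 3640 of the 8635 in the level range of the factors. OGT, the enzyme that adds O-GlcNAc to SP1 and many other proteins, fell by 0.52 (± 0.10, limma adjusted p = 0.00237). Members of the SIN3 corepressor complex passed the adjusted p in both directions, SIN3A at -0.39 ± 0.07 and HDAC1 at -0.26 ± 0.07 on the log2 scale, and HDAC2 at 0.19 ± 0.06. SMARCA4, a chromatin remodelling ATPase, passed it at -0.34 ± 0.09, RNF4, a ubiquitin ligase, at 0.39 ± 0.10, and TAF4, a TFIID subunit contacted by SP1, at 0.38 ± 0.07. HDAC1, HDAC2 and SMARCA4 lost it under 2, 7 and 3 of 22 alternatives. None was called in SWP against MYC WT, beside 5.13% of all tested genes, or between MYC MUT and SWP, beside 20.6%.

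Of 15 genes whose promoters have a described G4, 3 rose and 3 fell in MYC MUT against MYC WT, MYC, the edited gene, among them, beside 21.4% of all tested genes. MYB (-1.22 ± 0.19, limma adjusted p = 0.000515), MYC and TERT (-0.63 ± 0.09, adjusted p = 0.000345) fell, and PDGFA (1.17 ± 0.27, adjusted p = 0.00577), SRC (0.60 ± 0.08, adjusted p = 0.000202) and HRAS (0.53 ± 0.15, adjusted p = 0.0163) rose. TERT, the catalytic subunit of telomerase, was the 1 gene among these relatives, binders, cofactors and G4 genes called in SWP against MYC WT (-0.80 ± 0.09, limma adjusted p = 0.000286). That comparison called 5.13% of all tested genes and 1.93% of those in the level range of the factors. The means of TERT were 881, 568 and 507 normalized counts in MYC WT, MYC MUT and SWP. PDGFA, a growth factor chain, had 227, 396 and 311 normalized counts in MYC WT and 301, 646 and 642 in SWP (log2 fold change 0.72 ± 0.27, limma adjusted p = 0.131). It was higher in SWP in each of the 3 same-numbered pairs and was called with the replicate block (limma adjusted p = 0.0133), with DESeq2 (adjusted p = 0.0159), without the first SWP library (log2 fold change 1.08, limma adjusted p = 0.0023) and without the first MYC WT and SWP libraries (limma adjusted p = 0.000178). Between MYC MUT and SWP, MYC, MYB, RET (0.61 ± 0.20, adjusted p = 0.0357) and HRAS were called, beside 20.6% of all tested genes.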

How the data were processed

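Total RNA was poly(A) selected and made into strand-specific libraries by the authors, who aligned reads to hg38 with bwa mem, took out duplicates with Picard and counted reads over GENCODE genes. The counting tool and its use of strand are not given in the sources used here. This aligner is not splice-aware, and reads over exon junctions can be truncated, lost or placed on an intronless copy. The deposited values, treated as a normalized signal, are counts divided by a DESeq2 size factor per library. Multiplied by the recovered factor, 100% of the values were whole within 0.01, and these reads served the count tests. Reads counted on genes numbered 65024354 to 98497026 per library. The spread holds counting error as well as differences between libraries, and n = 3 limits its precision.

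Of the 20884 genes with a mean of at least 10, all were tested with limma 3.58.1 in R 4.3.3 (eBayes with trend, pseudocount 1, 9 libraries in 1 fit), with Benjamini-Hochberg adjustment. For single genes an exact permutation test (two-sided) was added, which cannot give a p below 0.1. Alternatives were pseudocounts of 0.1 and 10, other filters and scalings, no trend, only the groups compared, a replicate block, edgeR 4.0.16, DESeq2 1.42.0, other thresholds and leaving out libraries. Positions and lengths came from GENCODE on hg38, which matched 57754 of 58336 identifiers, and promoters from RefSeq. Same-numbered libraries had r across genes of 0.102 to 0.555 in SWP against MYC WT. It was 0.232 to 0.333 in MYC MUT against SWP and 0.0490 to 0.328 in MYC MUT against MYC WT. Libraries with unlike numbers reached 0.263, 0.0236 and 0.154 in the same order. These values do not settle whether the libraries were paired, and the main fit had no block in any comparison. On data simulated for all 20884 genes, limma called 154 of 200 genes given a log2 fold change of 1 (MYC MUT against MYC WT) and 10 others. The factor genes changed by at most 0.37 in that comparison, a size that was not simulated. The members, the gene lists, the alternatives and the rule for naming genes (all members, MYC, up to 6 called genes per list, overlapping genes) were chosen with earlier results of these data known. NME2P1, NME1, VIM, KRT8 and the list genes given without a call were named after their values were seen. Tables and plots used Python 3.11.15, pandas 2.3.3, numpy 2.4.6 and matplotlib 3.10.9.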

Additional observations from a re-analysis of the deposited data

Results flagged for a closer look

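For 12 of the genes named above, the effects of the 2 edits against MYC WT differed by the direct test of MYC MUT against SWP in limma, past both the adjusted p and the fold threshold. Other named genes, such as NONO and SRC, passed its adjusted p with a smaller difference. None of the 10 factor genes was among the 12. List genes were named when called in a comparison, this one included, so the number 12 follows in part from that choice. Of all tested genes, 20.6% were called in MYC MUT against SWP. Lower in MYC MUT than in SWP were NME5 (log2 difference -4.09, adjusted p = 3.02e-05), MYB (-1.39, adjusted p = 0.000204), MYC (-0.87, adjusted p = 0.00454), KLF15 (-0.83, adjusted p = 0.000560), ZBTB7B (-0.71, adjusted p = 6.13e-05) and HMGB1 (-0.54, adjusted p = 0.000454). Higher in MYC MUT were KRT8 (2.04, adjusted p = 3.24e-07), SP6 (0.91, adjusted p = 0.0144), KLF2 (0.80, adjusted p = 0.00162), KLF14 (0.69, adjusted p = 0.0321), RET (0.61, adjusted p = 0.0357) and HRAS (0.52, adjusted p = 0.0190). With 3 libraries per line, no group was large enough for a test of single outlying samples.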

How the results depend on the processing

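No factor gene was called in any comparison under any of the alternatives, from pseudocounts and filters to edgeR, DESeq2, the replicate block and each library left out, except that 2 counted as called in MYC MUT against MYC WT when the fold threshold was dropped. The number of factor genes past the adjusted p in that comparison, 2 as reported, was 4 with equal totals and 4 with equal upper quartiles (SP1, NME2, MAZ and VEZF1), 3 with edgeR, 3 with DESeq2 and 3 with the replicate block (SP1, NME2 and MAZ), 4 without the first MYC WT and SWP libraries (SP1, NME2, MAZ and PATZ1) and 1 with NME2 and NME2P1 summed, the last 2 settings chosen after seeing the data, and 2 to 2 with a library left out. In SWP against MYC WT it was 0, and 2 with the replicate block. In MYC MUT against SWP it was 0, and 2 with the replicate block, 1 with edgeR, 1 with DESeq2, 1 without the first MYC WT and SWP libraries and 0 to 1 with a library left out, the 1 being NME2 without MYC MUT library 3 or SWP library 1. SP1 in MYC MUT kept its direction and passed the adjusted p under all 22 alternatives (log2 fold change -0.38 to -0.24, adjusted p 0.00138 to 0.0477), and NME2 under 21 of 22 (-0.43 to -0.18, highest adjusted p 0.0686). The block in MYC MUT against MYC WT, where pairing of the libraries is not settled, gave limma adjusted p of 0.00232 for SP1, 8.82e-05 for NME2 and 0.00743 for MAZ.

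Scaling to equal totals or equal upper quartiles multiplies all genes of a library by the same factor. In MYC MUT against MYC WT the median log2 fold change over all tested genes was -0.0034 as reported. It was 0.071 with equal totals and 0.035 with equal upper quartiles. Values near 0 changed sign under these and other settings, and why they did so under the others was not tested. In MYC MUT against MYC WT these were, with equal totals, CNBP (0.052), SP2 (0.026), SP3 (0.058), YY1 (0.012) and NME2P1 (0.048), with equal upper quartiles CNBP (0.016), SP3 (0.021) and NME2P1 (0.011), and with a library left out CNBP (-0.060 to 0.00040), SP3 (-0.037 to 0.0020), SP4 (-0.058 to 0.084) and NME2P1 (-0.058 to 0.00096). Without the first MYC WT and SWP libraries CNBP was 0.00040. In MYC MUT against SWP, PATZ1 was -0.025 with edgeR, -0.029 with DESeq2 and -0.096 to 0.15 with a library left out. In SWP against MYC WT with a library left out, HMGB1 ran from -0.047 to 0.093, HRAS from -0.16 to 0.15, KLF15 from -0.051 to 0.15, KLF2 from -0.16 to 0.062, MYC from -0.29 to 0.12 and SP6 from -0.39 to 0.13, and without the first MYC WT and SWP libraries MYC was 0.014 and SP6 0.036. The adjusted p of SP6, KLF14, RET and HRAS was lost under 1 to 7 alternatives, at values up to 0.119. Calls also need the fold threshold, and some genes fell below it with the adjusted p still passed. At their smallest, HMGB1 was at -0.44, OGT at -0.44 and NME6 at 0.46 in MYC MUT against MYC WT. HMGB1 reached -0.47 in MYC MUT against SWP. HRAS also fell below the fold threshold in both comparisons (to 0.36 and 0.39), as did KLF14 (0.46) and RET (0.36) in MYC MUT against SWP. Below the fold threshold, the adjusted p was lost in MYC MUT against MYC WT by TAF15, HDAC2, SMARCA4 and HDAC1 (up to 0.119, 0.113, 0.0699 and 0.0564), and in SWP against MYC WT by NONO, HNRNPA1 and ZBTB7B (up to 0.144, 0.114 and 0.0666). PATZ1 and SP4 are limited by the spread of 3 libraries per line, and all 10 genes have read counts far above the minimum.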
